A study of Mus musculus with 9 samples.

Results

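The genes of leukotriene and prostaglandin synthesis were followed across crypt RNA libraries in which the Polycomb gene Pcgf6 had or had not been deleted. They were picked by symbol among the 55341 genes of the count files: Pla2g4a, Alox5, Alox5ap, Ltc4s, Ptgs1, Ptgs2, Hpgds, Ptges and Hpgd, which is 9 genes in all. All 9 had counts and all 9 were kept by the filter on low counts, which left 16250 genes to be tested. Pcgf6 encodes a Polycomb group protein of the non-canonical PRC1.6 complex, which represses genes on chromatin, and the title of the series states that its loss of function was studied in adult intestinal epithelial cells.

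The small intestine of male mice on a C57BL/6 background, 8 to 12 weeks old, supplied the crypts, and their polyadenylated RNA was sequenced with Smart-seq2. The AhCre KO group (n = 2) carried a conditional Pcgf6 knockout driven by AhCre and received beta-naphthoflavone (BNF), and the AhCre WT group (n = 2) was wild type and received BNF as well. The Villin KO group (n = 2) carried the Pcgf6 knockout driven by Villin CreERT2 and received tamoxifen (TAM), and the Villin WT group (n = 3) was wild type and received TAM. Titles place collection at day 15 after induction, whereas a second description line and the design text give day 7. The description of the Villin libraries also names BNF, although their titles name TAM. AhCre places Cre under a Cyp1a1 promoter that BNF switches on, also outside the gut, while Villin CreERT2 acts in the gut epithelium. Whether the WT mice carried a Cre transgene is not stated, and the labels are silent on whether replicates were different animals. The p-values therefore reflect only the variation among these libraries, part of which may be technical.

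Total counts per library ran between 9263993 and 10179884 in AhCre KO, between 10645569 and 12377921 in AhCre WT, between 7146764 and 8339149 in Villin KO and between 6455098 and 7013456 in Villin WT. Pcgf6 itself fell on average by 1.44 on the log2 scale (SE 0.29, edgeR adjusted p = 0.0327) but was not lost, with 89 and 68 counts in AhCre KO against 219 and 136 in AhCre WT, and 15 and 16 counts in Villin KO against 60, 99 and 49 in Villin WT. The fall of Pcgf6 passed in Villin (-1.99, SE 0.42, edgeR adjusted p = 0.0220) but not in AhCre (-0.89, SE 0.40). All 7 epithelial markers had counts in every library. Libraries of the Villin line differed from their replicates far more than those of the AhCre line: chi-square divided by its degrees of freedom came to 43.3 to 63.6 in Villin and to 6.48 and 10.8 in AhCre.

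Leukotrienes and prostaglandins are lipid mediators made from arachidonic acid, which phospholipase A2 enzymes cut out of membranes. 5-lipoxygenase and its activating protein turn it into leukotriene A4, from which leukotriene C4 synthase makes the first cysteinyl leukotriene. The cyclooxygenases make prostaglandin H2, which terminal synthases convert to prostaglandin D2, E2 and others, and a dehydrogenase then inactivates them. In the intestinal epithelium, tuft cells are known for carrying much of this machinery and for releasing cysteinyl leukotrienes and prostaglandin D2.

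Promoters are shown for 5 of the 6 genes that rose in the knockouts, since these are genes the results turn on; each is the RefSeq sequence (build GRCm38.p6), written along the gene's strand from 250 bases before to 50 bases after its start. The windows are chr6:116461129-116461428 on the minus strand for Alox5, chr11:50238483-50238782 on the minus strand for Ltc4s, chr2:36230176-36230475 on the plus strand for Ptgs1, chr1:150099781-150100080 on the plus strand for Ptgs2 and chr6:65144681-65144980 on the minus strand for Hpgds. Capitals mark an E-box (CACGTG) or an octamer (ATGCAAAT).
Alox5: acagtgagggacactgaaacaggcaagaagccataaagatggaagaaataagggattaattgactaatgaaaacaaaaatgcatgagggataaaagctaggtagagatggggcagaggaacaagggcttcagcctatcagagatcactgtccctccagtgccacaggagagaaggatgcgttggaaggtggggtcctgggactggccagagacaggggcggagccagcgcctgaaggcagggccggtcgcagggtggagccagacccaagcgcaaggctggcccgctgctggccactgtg
Ltc4s: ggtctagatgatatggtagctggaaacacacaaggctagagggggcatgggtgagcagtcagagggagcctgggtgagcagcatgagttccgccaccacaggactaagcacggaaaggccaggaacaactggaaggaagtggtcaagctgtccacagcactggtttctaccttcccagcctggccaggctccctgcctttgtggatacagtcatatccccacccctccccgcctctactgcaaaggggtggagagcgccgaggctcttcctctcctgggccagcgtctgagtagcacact
Ptgs1: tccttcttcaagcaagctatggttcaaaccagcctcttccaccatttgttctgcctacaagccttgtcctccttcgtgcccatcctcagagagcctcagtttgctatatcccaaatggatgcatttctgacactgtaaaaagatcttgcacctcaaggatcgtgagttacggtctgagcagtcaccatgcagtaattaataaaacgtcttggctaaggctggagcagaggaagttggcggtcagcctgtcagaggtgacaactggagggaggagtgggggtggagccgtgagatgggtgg
Ptgs2: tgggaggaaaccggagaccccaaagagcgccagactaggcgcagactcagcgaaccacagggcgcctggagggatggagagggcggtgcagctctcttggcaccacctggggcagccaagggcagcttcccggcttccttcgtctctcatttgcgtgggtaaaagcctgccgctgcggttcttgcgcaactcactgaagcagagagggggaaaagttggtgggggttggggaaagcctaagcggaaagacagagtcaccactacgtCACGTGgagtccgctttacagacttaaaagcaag
Hpgds: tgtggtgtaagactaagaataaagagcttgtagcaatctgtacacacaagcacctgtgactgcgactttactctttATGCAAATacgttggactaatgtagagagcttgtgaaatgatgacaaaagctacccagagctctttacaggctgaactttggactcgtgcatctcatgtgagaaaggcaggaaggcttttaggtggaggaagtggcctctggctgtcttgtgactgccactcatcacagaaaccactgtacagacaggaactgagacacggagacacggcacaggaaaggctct

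The E-box is a motif bound by the MGA and MAX subunits of the PCGF6 complex, the octamer by POU factors such as the tuft cell regulator POU2F3, and an E2F half-site (GGCGGGA) was searched as well, since E2F6 belongs to the same complex. Both strands were searched, and none of the 3 motifs overlaps another in these windows. Of the 9 genes 8 had a promoter entry, Pla2g4a with 2 and Alox5ap with none. The E-box was found once, in Ptgs2, 16 bases after the start, and 7.15% of all 32851 promoters hold one. The octamer was found once, in Hpgds, 174 bases before the RefSeq start (position -174), and 1.74% of all promoters hold it. The gene coordinates given below come from GENCODE, where Hpgds starts further upstream, at 65144908, so the octamer lies inside that annotated gene. For Ltc4s the GENCODE start (50238616) is also upstream of the RefSeq start. None of the windows of these genes had the E2F half-site, which 11.3% of all promoters hold. The Ptgs2 window had 16 CpG dinucleotides and 59.3% GC, whereas the other 4 windows printed had 5 to 7 CpG and 46.7% to 58.7% GC. Of the windows not printed, Hpgd had 12 CpG and 58% GC and Ptges had 10 CpG and 60% GC. Those of Pla2g4a had 6 CpG and 45.3% GC, and 2 CpG and 41% GC. The median over all promoters was 7 CpG and 52.7% GC.

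On average over both drivers 6 of the 9 genes rose in the knockouts. Alox5, Alox5ap and Ltc4s, those of the 9 in leukotriene C4 synthesis, rose. So did the cyclooxygenases Ptgs1 and Ptgs2 and the prostaglandin D synthase Hpgds. None of the 9 fell in edgeR, DESeq2 or limma-voom, or at an unadjusted p under 0.05. Among all genes tested 1.17% were called on average, 0.972% as higher and 0.197% as lower. A call means an edgeR quasi-likelihood test over all 9 libraries with a p under 0.05 after Benjamini-Hochberg adjustment. The same 6 genes passed in Villin, where 6.21% of all genes were called, 3.33% as higher and 2.88% as lower, whereas DESeq2 called 8 of the 9 there, Hpgd and Pla2g4a besides these 6, and limma-voom called 2, Alox5 and Alox5ap. Over all genes the Villin calls were 541 higher and 468 lower, or 704 higher and 388 lower with DESeq2 size factors, which shift the median of all genes by 0.11 in Villin and by -0.12 for the difference between drivers (log2). In AhCre none of the 9 passed in this fit, where a single gene of all tested (0.00615%) did; 5 had an unadjusted p under 0.05, 2 passed in DESeq2 and 5 in limma-voom. Fitted alone, without the more variable Villin libraries, the AhCre libraries gave 6 calls among the 9 genes, all higher in KO. These were Pla2g4a, Alox5, Alox5ap, Ltc4s, Ptgs1 and Hpgds, so Ptgs2 did not pass there. In that fit 3.62% of all genes were called higher and 2.82% lower. Among the Villin libraries fitted alone, Alox5, Alox5ap, Ltc4s, Ptgs1 and Hpgds passed, and the low-count filter left Ptgs2 untested. In bulk libraries, more cells of a type and more RNA per cell cannot be told apart, nor can fewer cells and less RNA per cell.

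The median log2 fold change of the 9 genes was 2.78 on average, 1.25 in AhCre and 3.26 in Villin, against medians over all genes tested of -0.095, -0.0048 and -0.18. With Ptgs2, which had no counts in Villin WT, placed at its value against a floor of 3 counts, the median on average was 2.65 and that in Villin stayed at 3.26. KO libraries lay above all WT libraries of their driver, in both drivers, for 8 of the 9 genes, Ptges being the exception; 3.42% of all genes tested did so in both drivers, 23.4% in AhCre and 14.5% in Villin. The calls on average depended on single libraries: none of the 9 passed without AhCre WT 1 or without AhCre WT 2, 1 without Villin WT 1 (Alox5ap) and 3 without Villin WT 2 (Alox5, Alox5ap and Hpgds). In Villin 2 passed, Alox5 and Alox5ap, without Villin WT 1 or without Villin KO 1. In AhCre 2 passed, Alox5 and Hpgds, without Villin KO 1 or without Villin KO 2.

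**Figure D1:**
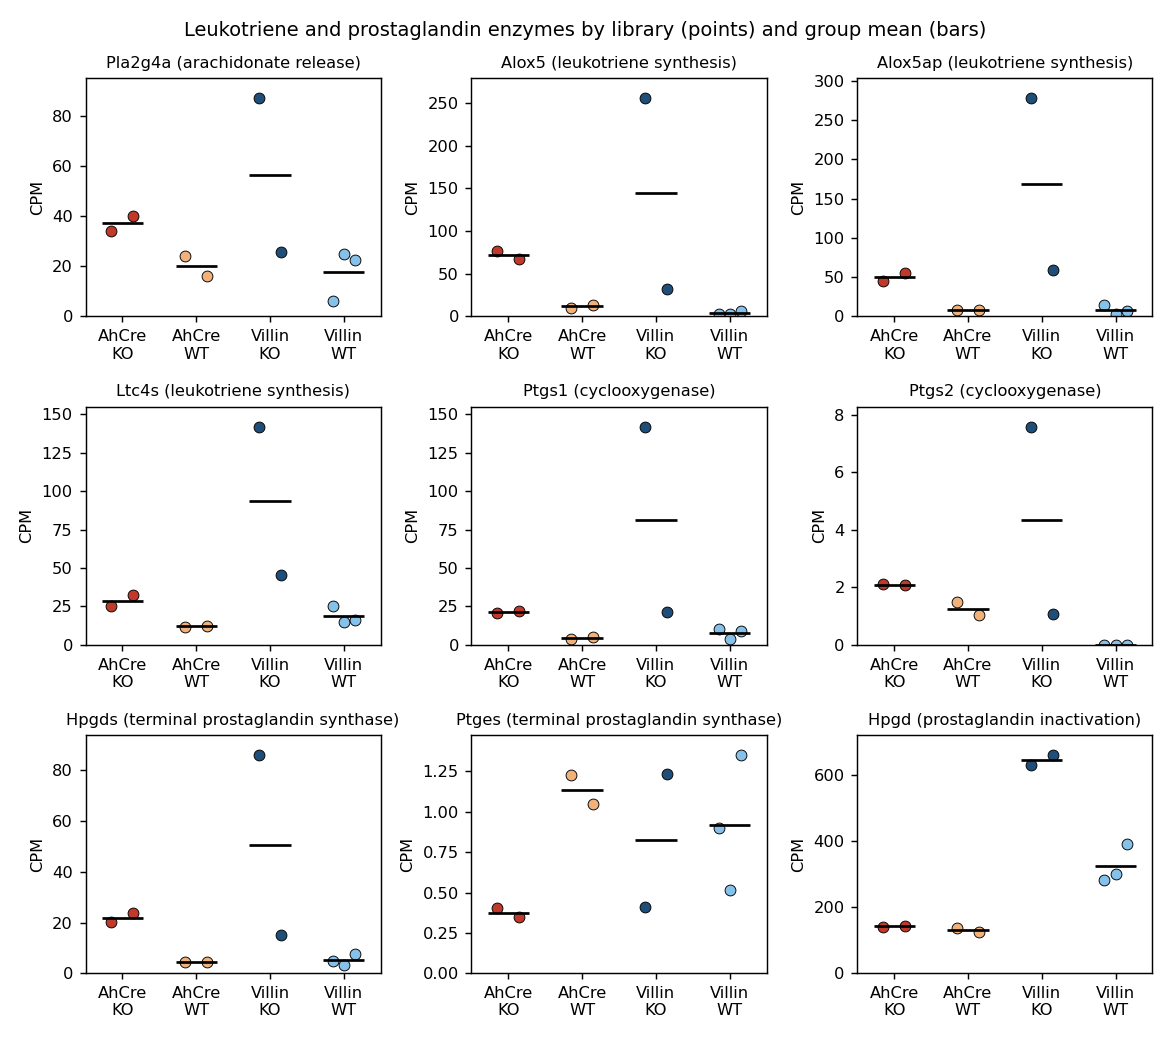
CPM (counts scaled to library size and TMM factor) of each gene in every library, with one point per library, grouped by driver and genotype, and a horizontal bar at the group mean; each panel has its own linear axis starting at 0. Alox5, Alox5ap, Ltc4s, Ptgs1 and Hpgds were higher in the KO libraries of both drivers with no overlap with WT, and their Villin KO libraries lay far apart from each other.

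Pla2g4a (chromosome 1, 149829618 to 149961290, minus strand, GRCm38), the cytosolic phospholipase A2 that releases arachidonic acid, had 34.3 and 40.0 CPM in AhCre KO, against 24.2 and 16.0 CPM in AhCre WT. It had 87.1 and 25.8 CPM in Villin KO, against 6.29, 25.01 and 22.4 CPM in Villin WT. The KO libraries were the higher in both drivers, but Villin KO 2 exceeded the highest Villin WT library by less than 1 CPM. The log2 fold change was 1.27 on average (SE 0.41, edgeR adjusted p = 0.186), 0.89 in AhCre (SE 0.61, edgeR adjusted p = 1.0) and 1.65 in Villin (SE 0.55, edgeR adjusted p = 0.0887), so it did not pass in any of these. It passed among the AhCre libraries fitted alone (edgeR adjusted p = 0.0125), and in Villin its value was 0.54 without Villin KO 1. Without Villin KO 2 it passed on average (1.58, edgeR adjusted p = 0.0326) and in Villin (2.27, edgeR adjusted p = 0.0194).

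A second cytosolic phospholipase gene, Pla2g4c (chromosome 7, 13324655 to 13360672, plus strand), rose on average by a log2 fold change of 8.66 (SE 0.47, edgeR adjusted p = 3.76e-06). Per kilobase of annotated exon its level was 26.8 and 18.9 times that of Pla2g4a in AhCre KO, against 0.160 and 0.143 times in AhCre WT, and 30.7 and 35.0 times in Villin KO, against 0.682, 0.0700 and 0.132 times in Villin WT. Pla2g4a was thus the higher of the pair in every WT library and the lower in every KO library.

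Alox5 (chromosome 6, 116410077 to 116461178, minus strand) encodes 5-lipoxygenase, which starts leukotriene synthesis. Its level was 76.6 and 67.5 CPM in AhCre KO, against 9.56 and 13.9 CPM in AhCre WT. In Villin KO it was 255 and 32.5 CPM, against 3.41, 2.95 and 6.55 CPM in Villin WT. KO and WT did not overlap in either driver, and Villin KO 1 stood far above Villin KO 2. Alox5 rose on average by a log2 fold change of 3.85 (SE 0.51, edgeR adjusted p = 0.00614) and in Villin by 5.08 (SE 0.69, edgeR adjusted p = 0.00637). In AhCre the log2 fold change was 2.62 (SE 0.71, edgeR adjusted p = 0.543), and it passed among the AhCre libraries fitted alone (edgeR adjusted p = 9.96e-08). Without Villin KO 1 the value in Villin was 2.96 and still passed (edgeR adjusted p = 0.0258). Leaving out AhCre WT 1, AhCre WT 2 or Villin WT 1 ended the call on average, at edgeR adjusted p of 0.0564, 0.0679 and 0.0575.

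Alox5ap (chromosome 5, 149264767 to 149288153, plus strand) encodes FLAP, the membrane protein that presents arachidonic acid to 5-lipoxygenase. It had 45.6 and 55.0 CPM in AhCre KO, against 8.85 and 8.43 CPM in AhCre WT. It had 278 and 59.9 CPM in Villin KO, against 14.4, 3.59 and 7.51 CPM in Villin WT. As for Alox5, both KO groups lay wholly above WT and Villin KO 1 was the highest library. It rose on average by 3.43 (log2, SE 0.46, edgeR adjusted p = 0.00614) and in Villin by 4.33 (SE 0.62, edgeR adjusted p = 0.00773); in AhCre the value was 2.54 (SE 0.67, edgeR adjusted p = 0.515). Without Villin KO 1 the value in Villin was 2.85 (edgeR adjusted p = 0.0464). The call on average was lost without AhCre WT 1 or AhCre WT 2, at edgeR adjusted p of 0.0564 and 0.0679.

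Ltc4s (chromosome 11, 50236461 to 50238616, minus strand), which encodes leukotriene C4 synthase, moved less. It had 25.1 and 32.2 CPM in AhCre KO, against 11.8 and 12.3 CPM in AhCre WT. It had 142 and 45.5 CPM in Villin KO, against 24.98, 14.9 and 16.0 CPM in Villin WT. The groups did not overlap. Ltc4s rose on average by 1.79 (log2, SE 0.32, edgeR adjusted p = 0.0208) and in Villin by 2.33 (SE 0.43, edgeR adjusted p = 0.0142), with 1.25 in AhCre (SE 0.48, edgeR adjusted p = 1.0). In Villin the call was lost without Villin WT 1 and without Villin KO 1, where the value was 1.31 (edgeR adjusted p = 0.108). Leaving out any 1 AhCre library, Villin WT 1 or Villin WT 2 ended the call on average, at edgeR adjusted p of 0.0626 to 0.153.

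Read per kilobase of annotated exon, the ratio of Ltc4s to Alox5ap differed between genotypes. The level of Ltc4s was 0.770 and 0.819 times that of Alox5ap in AhCre KO, against 1.87 and 2.04 times in AhCre WT. In Villin KO it was 0.714 and 1.06 times that of Alox5ap, against 2.43, 5.80 and 2.98 times in Villin WT. The ratio was therefore lower in every KO library than in any WT library. Annotated exons of Alox5ap share 13.3% of their bases with Gm19719 on the other strand, and those of Ltc4s share 26.4% with Gm26542; since Smart-seq2 does not mark the strand, reads there could not be assigned to either gene. Gm19719 itself had 0 to 10 counts per library and Gm26542 had 3 to 28.

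Ptgs1 (chromosome 2, 36230426 to 36252272, plus strand) encodes COX-1, the cyclooxygenase that is active in resting tissue. It had 20.7 and 21.9 CPM in AhCre KO, against 4.003 and 4.92 CPM in AhCre WT, and 142 and 21.1 CPM in Villin KO, against 10.2, 3.59 and 8.86 CPM in Villin WT. KO libraries lay above WT in both drivers, and Villin KO 2 was close to the AhCre KO level. Ptgs1 rose on average by 2.85 (log2, SE 0.48, edgeR adjusted p = 0.0135) and in Villin by 3.44 (SE 0.64, edgeR adjusted p = 0.0144), with 2.25 in AhCre (SE 0.71, edgeR adjusted p = 0.761). In Villin the call was lost without Villin WT 1 (edgeR adjusted p = 0.0541) and without Villin KO 1, where the value was 1.51 (edgeR adjusted p = 0.134). Leaving out either AhCre WT library, Villin WT 1 or Villin WT 2 ended the call on average (edgeR adjusted p = 0.0519 to 0.110). Its exons share 3.81% of their bases with Gm43621 on the other strand, which had 0 to 8 counts per library.

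Ptgs2 (chromosome 1, 150100031 to 150108227, plus strand) encodes COX-2, the inducible cyclooxygenase, and was scarce throughout. In AhCre KO it had 26 and 24 counts (2.10 and 2.08 CPM), against 23 and 14 counts (1.49 and 1.04 CPM) in AhCre WT. In Villin KO it had 37 and 7 counts (7.58 and 1.08 CPM), against 0 counts in each of the 3 Villin WT libraries. Of the 44 Villin KO counts, 37 came from Villin KO 1. Against an assumed floor of 3 counts over the Villin WT group, the level of Ptgs2 in Villin KO was 23.9-fold higher. That ratio is no lower bound, since the exact 95% interval, for counting error only, starts at 18.7. Without Villin KO 1, the 7 counts left put Villin KO 6.68-fold higher than the same floor, and that interval starts at 4.12. Ptgs2 was left out by the low-count filter in the Villin libraries fitted alone. In the fit to all 9 libraries it passed in Villin (edgeR adjusted p = 0.0157). It passed on average as well (edgeR adjusted p = 0.0429), while in AhCre the log2 fold change was 0.72 (SE 0.80, edgeR adjusted p = 1.0). The call on average was lost without any 1 library other than Villin KO 2, and in Villin it was lost without Villin WT 1 or Villin KO 1 (edgeR adjusted p = 0.0549 and 0.0827).

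Per kilobase, Ptgs1 made up 92.1% and 92.6% of both cyclooxygenase genes together in AhCre KO, against 76.1% and 84.8% in AhCre WT. It made up 95.7% and 95.8% in Villin KO, against 100% in all 3 Villin WT libraries, where Ptgs2 had no counts. Ptgs1 was the main cyclooxygenase transcript in all 9 libraries.

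Hpgds (chromosome 6, 65117293 to 65144908, minus strand) encodes the hematopoietic prostaglandin D synthase. It had 20.1 and 23.9 CPM in AhCre KO, against 4.46 and 4.47 CPM in AhCre WT. It had 85.8 and 15.0 CPM in Villin KO, against 4.85, 3.46 and 7.51 CPM in Villin WT. No KO library overlapped WT. Hpgds rose on average by 2.78 (log2, SE 0.44, edgeR adjusted p = 0.0100) and in Villin by 3.26 (SE 0.59, edgeR adjusted p = 0.0131), with 2.29 in AhCre (SE 0.65, edgeR adjusted p = 0.602). In Villin the call was lost without Villin WT 1 (edgeR adjusted p = 0.0601) and without Villin KO 1, where the value was 1.54 (edgeR adjusted p = 0.108). Leaving out either AhCre WT library or Villin WT 1 ended the call on average (edgeR adjusted p = 0.0716 to 0.0883).

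Ptges (chromosome 2, 30889471 to 30929863, minus strand), which encodes the inducible microsomal prostaglandin E synthase, was barely detected. It had 5 and 4 counts in AhCre KO, against 19 and 14 counts in AhCre WT, and 2 and 8 counts in Villin KO, against 5, 4 and 7 counts in Villin WT. KO was lower with no overlap in AhCre, as for 25.1% of all genes tested, and the groups overlapped in Villin. The log2 fold change was -0.81 on average (SE 0.53, edgeR adjusted p = 0.526), -1.56 in AhCre (SE 0.74, edgeR adjusted p = 1.0) and -0.06 in Villin (SE 0.74, edgeR adjusted p = 0.964), the last with a 95% interval of -1.67 to 1.55 and a value of 0.04 under DESeq2 size factors. Per kilobase, Hpgds made up 96.8% and 97.7% of Hpgds and Ptges together in AhCre KO, against 69.0% and 72.4% in AhCre WT, and 99.2% and 88.1% in Villin KO, against 76.8%, 80.5% and 77.3% in Villin WT.

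Hpgd (chromosome 8, 56294585 to 56321043, plus strand) encodes 15-hydroxyprostaglandin dehydrogenase, which inactivates prostaglandins. It was the most abundant of the 9 genes per kilobase in all 4 groups. It had 140 and 144 CPM in AhCre KO, against 137 and 125 CPM in AhCre WT, a log2 fold change of 0.11 (SE 0.31, 95% interval -0.56 to 0.79, edgeR adjusted p = 1.0). It had 629 and 659 CPM in Villin KO, against 281, 301 and 391 CPM in Villin WT, a log2 fold change of 0.99 (SE 0.28, edgeR adjusted p = 0.0556). Unlike the 6 genes that rose, Hpgd was nearly equal in the pair of Villin KO libraries. Its value in Villin passed the threshold without Villin WT 2 (1.05, edgeR adjusted p = 0.0476) and without Villin WT 3 (1.15, edgeR adjusted p = 0.0381). With all libraries kept it passed in 2 of 5 alternatives, with DESeq2 size factors (1.09, edgeR adjusted p = 0.0397) and in DESeq2 (1.09, DESeq2 adjusted p = 0.00442).

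**Figure D2:**
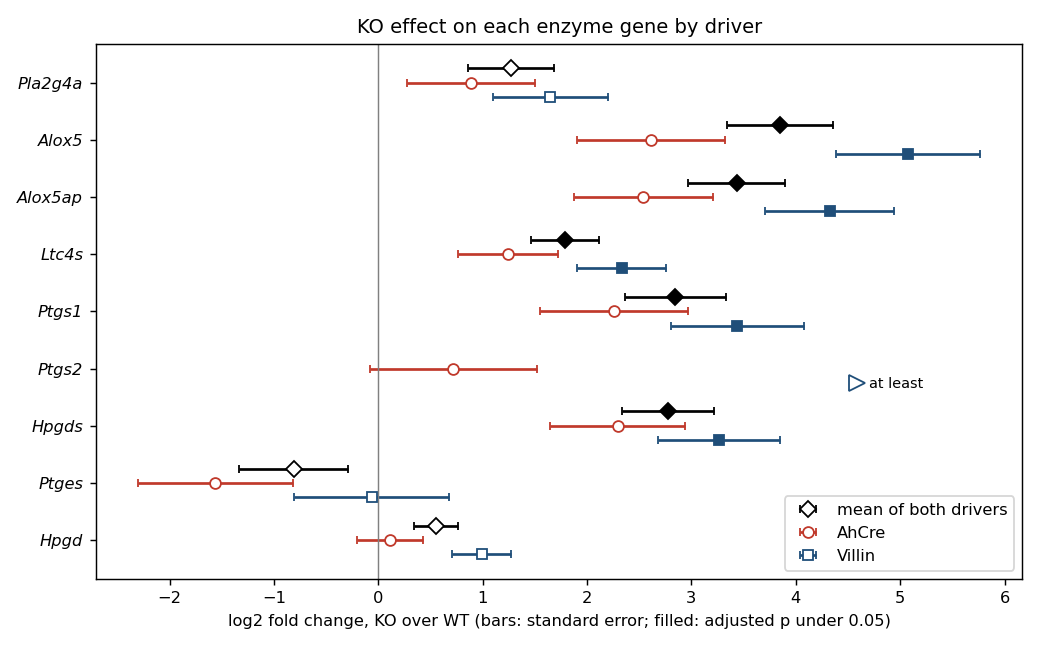
Log2 fold change of KO over WT (horizontal axis) for each gene, as the mean of both drivers (diamonds), in AhCre (circles) and in Villin (squares), with bars for the standard error and filled symbols where the adjusted p was under 0.05. Ptgs2 in Villin is drawn as a triangle at its value against a floor of 3 counts over Villin WT, because Villin WT had no counts. The label at least beside it refers to that assumed floor only. Its mean of both drivers is left out for the same lack of counts. The 5 other genes that rose lie at 1.79 to 3.85 on average.

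The order of the levels can be read from CPM per kilobase of annotated exon, in which all exons of a gene are joined, so that genes with long rarely used exons appear lower. In AhCre KO Hpgd came first at 84.3 ± 1.90 CPM per kilobase, followed by Alox5ap at 35.4 ± 4.67, Ltc4s at 28.2 ± 4.96, Alox5 at 17.5 ± 1.57, Pla2g4a at 5.81 ± 0.631, Ptgs1 at 5.49 ± 0.227, Hpgds at 3.42 ± 0.418, Ptgs2 at 0.457 ± 0.00318 and Ptges at 0.0955 ± 0.0103 (SD, n = 2). Only Pla2g4a and Ptgs1 overlapped among neighbours in that order. In AhCre WT Hpgd again came first at 78.0 ± 5.07, followed by Ltc4s at 11.9 ± 0.340, Alox5ap at 6.08 ± 0.209, Pla2g4a at 3.14 ± 0.906 and Alox5 at 2.86 ± 0.756 CPM per kilobase (SD, n = 2), where Pla2g4a and Alox5 overlapped, as did Ptges and Ptgs2 at the low end. Ltc4s thus stood above Alox5ap in AhCre WT and below it in AhCre KO.

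In Villin KO the mean order was the same as in AhCre KO down to Alox5, with Hpgd at 383 ± 12.5, Alox5ap at 119 ± 109, Ltc4s at 92.3 ± 67.1 and Alox5 at 35.0 ± 38.4 CPM per kilobase (SD, n = 2). Apart from Hpgd, neighbours in that order overlapped, Ptgs2 and Ptges included, except Hpgds and Ptgs2. In Villin WT Hpgd at 193 ± 34.6 and Ltc4s at 18.4 ± 5.46 stood apart from Alox5ap at 5.98 ± 3.85, Pla2g4a at 2.80 ± 1.58, Ptgs1 at 1.95 ± 0.904, Alox5 at 1.05 ± 0.477 and Hpgds at 0.821 ± 0.320 CPM per kilobase (SD, n = 3), each of which overlapped the next. Hpgd made up 48.0% and 45.4% of the summed CPM per kilobase of the 9 genes in AhCre KO, against 75.6% and 73.8% in AhCre WT, and 44.7% and 78.5% in Villin KO, against 80.6%, 88.4% and 88.6% in Villin WT. That share was lower in every KO library than in the WT libraries of its driver, by little in Villin KO 2.

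The estimated KO effect was the larger in Villin for the genes that rose, but no difference between drivers passed for any of the 9 genes in edgeR's test of AhCre minus Villin, in which 0.0738% of all genes were called and 0.0677% as lower. At an unadjusted p under 0.05 there were 2 (Alox5 and Ptgs2), in DESeq2 1 (Ptgs2) and in limma-voom 0. For Alox5 the difference was -2.46 (log2, 95% interval -4.50 to -0.42, edgeR adjusted p = 0.243) and for Hpgds -0.97 (95% interval -2.82 to 0.88, edgeR adjusted p = 0.597). Without Villin KO 2, Alox5 and Ptgs2 passed (edgeR adjusted p = 0.0218 for each). Without Villin KO 1 the sign turned for Pla2g4a, Ptgs1 and Hpgds, to 0.35, 0.75 and 0.77.

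Tuft cell markers moved with these genes. Of 20 tuft cell markers, none of them among the 9 genes, 19 rose on average in edgeR (20 in DESeq2, 19 in limma-voom). In Villin 19 rose in edgeR, 20 in DESeq2 and 10 in limma-voom. In AhCre 0 passed in edgeR (19 at an unadjusted p under 0.05, 12 in DESeq2 and 20 in limma-voom). Of all genes tested, edgeR called 0.972% higher on average, 3.33% in Villin and 0.00615% in AhCre. Their summed level was 1404 to 1439 CPM in AhCre KO, against 254 to 260 CPM in AhCre WT, and 871 to 5511 CPM in Villin KO, against 136 to 292 CPM in Villin WT. Villin KO 1, the library with the highest Alox5, Alox5ap, Ltc4s, Ptgs1, Ptgs2, Hpgds and Pla2g4a, was also the one with the highest tuft sum. The part of tuft cell number in the rise of the enzyme genes was not tested.

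Set against the mean log2 CPM of the tuft markers in the same library, the enzyme genes split. Alox5 lay 1.10 above that mean in AhCre KO, against 0.92 in AhCre WT, and Alox5ap 0.58 above it in AhCre KO, against 0.51 in AhCre WT. Ptgs1 lay at -0.65 in AhCre KO, against -0.42 in AhCre WT, and Hpgds at -0.61 in AhCre KO, against -0.41 in AhCre WT. These 4 genes thus kept nearly the same distance from the tuft markers in both AhCre genotypes. Ltc4s did not: it lay at -0.24 in AhCre KO, against 0.98 in AhCre WT, and at 0.81 in Villin KO, against 1.95 in Villin WT. Pla2g4a lay at 0.14 in AhCre KO, against 1.67 in AhCre WT, and Hpgd at 2.08 in AhCre KO, against 4.40 in AhCre WT. In Villin the same 4 genes differed more between genotypes. Alox5 lay at 1.00 in Villin KO, against -0.15 in Villin WT, and Alox5ap at 1.49 in Villin KO, against 0.67 in Villin WT. Ptgs1 lay at 0.26 in Villin KO, against 0.59 in Villin WT, and Hpgds at -0.34 in Villin KO, against 0.14 in Villin WT. Alox5 stood higher in both Villin KO libraries than in all Villin WT libraries and Hpgds lower, whereas the Villin groups overlapped for Alox5ap and Ptgs1. These distances are descriptions with no test.

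**Figure D3:**
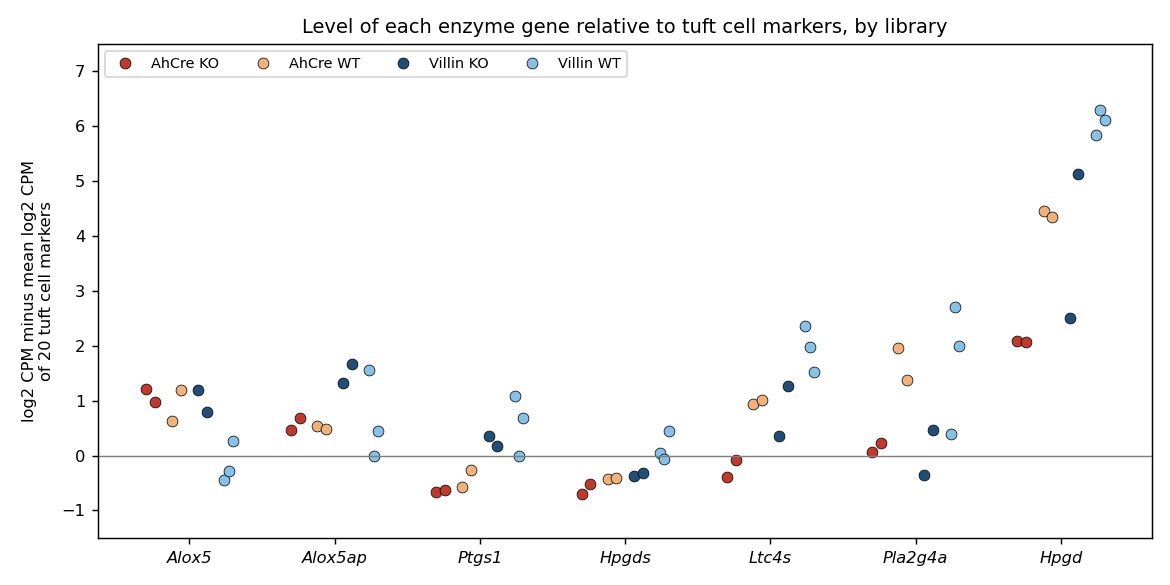
Log2 CPM of each gene minus the mean log2 CPM of 20 tuft cell markers in the same library (vertical axis), with one point per library colored by group; Ptgs2 and Ptges are left out for their low counts. Alox5, Alox5ap, Ptgs1 and Hpgds in AhCre KO lie near AhCre WT, whereas Ltc4s, Pla2g4a and Hpgd lie lower in both KO groups on average.

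Leukocytes that use the same enzymes were checked by their own markers. The summed level of 13 macrophage and monocyte markers was 92.6 to 106 CPM in AhCre KO, against 164 to 175 CPM in AhCre WT, and 129 to 855 CPM in Villin KO, against 39.1 to 164 CPM in Villin WT. No tested marker of that list passed in any of the 3 KO comparisons in edgeR, of 12 tested; at an unadjusted p under 0.05 there were 2 lower in AhCre and 6 higher and 1 lower in Villin, DESeq2 called 3 higher in Villin, and limma-voom called 3 lower in AhCre. The macrophage sum of 855 CPM belonged to Villin KO 2, in which the 6 risen enzyme genes were lower than in Villin KO 1, with 129 CPM. The 9 mast cell markers, of which 0 to 5 had no counts in a library, summed to 88.8 to 94.4 CPM in AhCre KO, against 43.1 to 45.1 CPM in AhCre WT, and to 35.9 to 126 CPM in Villin KO, against 6.29 to 88.4 CPM in Villin WT. Without the receptor gene Kit, which rose on average (1.83, SE 0.37, edgeR adjusted p = 0.0366), the 8 other mast cell markers summed to 4.93 and 10.8 CPM in AhCre KO, against 12.8 and 14.4 CPM in AhCre WT, and to 52.7 and 15.9 CPM in Villin KO, against 1.44, 1.54 and 75.5 CPM in Villin WT. Granulocyte markers summed to 4.04 to 5.55 CPM in AhCre KO, against 8.72 to 10.2 CPM in AhCre WT, and to 2.25 to 31.6 CPM in Villin KO, against 1.28 to 2.696 CPM in Villin WT. Of the 2 granulocyte markers tested, S100a9, a calprotectin subunit gene, rose in Villin (4.43, SE 1.07, edgeR adjusted p = 0.0334), with 4 and 75 counts in Villin KO, against 4, 0 and 1 counts in Villin WT. Lymphocyte and plasma cell markers summed to 189 to 233 CPM in AhCre KO, against 257 to 262 CPM in AhCre WT, and to 315 to 1796 CPM in Villin KO, against 64.5 to 2149 CPM in Villin WT. None of the 8 in that list passed in any of the 3 KO comparisons in edgeR, DESeq2 or limma-voom, or at an unadjusted p under 0.05. Stromal, muscle and endothelial markers summed to 61.2 to 63.6 CPM in AhCre KO, against 148 to 149 CPM in AhCre WT, and to 171 CPM in both Villin KO libraries, against 16.8 to 166 CPM in Villin WT. Of the 10 tested there, 2 rose in Villin, the collagen genes Col1a1 (3.39, SE 0.54, edgeR adjusted p = 0.00842) and Col3a1 (2.78, SE 0.56, edgeR adjusted p = 0.018). The part of these cells in the result was not tested.

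Genes with the most similar pattern over the 9 libraries were found by the root mean square distance of mean-centered log2 CPM among 12685 candidates. Alox5 was nearest to Avil (distance 0.297), which encodes the tuft cell actin-bundling protein advillin, and then to Pygl (0.469), the liver glycogen phosphorylase. Ptgs1 lay nearest to Ly6g6d (0.172) and Plekhs1 (0.298), and Hpgds to Pea15a (0.274) and Ly6g6f (0.274). Avil was on the tuft marker list. Ltc4s was nearest to Krt18 (0.311), a keratin of simple epithelia, and Hebp1 (0.325), while Ptgs2, with few counts, was nearest to AC132288.1 (0.471) and Samd14 (0.585). Among the 9 genes themselves the closest pair was Hpgds and Ptgs1 (0.380), the genes of consecutive steps to prostaglandin D2, followed by Alox5ap and Ptgs1 (0.556). All these distances share the same libraries and their depths and are given as descriptions.

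Other genes of the pathway were tested as well. Of 64 further genes of arachidonate release, lipoxygenases, leukotriene steps, prostanoid synthases, inactivation and receptors, 62 were in the files and 42 were tested. On average 1 rose (Pla2g4c) and 0 fell in edgeR; at an unadjusted p under 0.05 there were 6 higher and 0 lower, DESeq2 called 3 higher and 0 lower, and limma-voom called 1 higher and 0 lower. In AhCre 1 rose, again Pla2g4c. In Villin 4 rose and 0 fell in edgeR; at an unadjusted p under 0.05 there were 14 higher and 3 lower, DESeq2 called 11 higher and 0 lower, and limma-voom called 2 higher and 0 lower. Among all genes tested, the share called higher in edgeR was 0.972% on average, 0.00615% in AhCre and 3.33% in Villin. The 42 genes had medians of 0.02 on average, -0.14 in AhCre and 0.26 in Villin (log2 fold change), beside medians over all genes of -0.095, -0.0048 and -0.18.

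The 3 other genes called in Villin act on leukotrienes after their synthesis. Ggt1, which encodes a gamma-glutamyltransferase that can turn leukotriene C4 into D4, had 1941 and 1514 CPM in Villin KO, against 565, 656 and 629 CPM in Villin WT, and rose by 1.49 (log2, SE 0.28, edgeR adjusted p = 0.0159). Dpep1, a dipeptidase gene of the D4 to E4 step, rose by 1.36 (SE 0.31, edgeR adjusted p = 0.0288), and Cyp4f14, a cytochrome P450 gene of leukotriene B4 omega-hydroxylation, by 1.39 (SE 0.32, edgeR adjusted p = 0.0299). In AhCre their log2 fold changes were -0.50, 0.11 and -0.20 (edgeR adjusted p = 1.0 for each). Absorptive enterocyte markers moved with them: 5 of 10 rose in Villin in edgeR (6 in DESeq2, 2 in limma-voom), against 3.33% of all genes called higher. Their summed level was 39464 to 57367 CPM in Villin KO, against 17915 to 31679 CPM in Villin WT. In AhCre KO it was 8136 to 8357 CPM, against 9182 to 10236 CPM in AhCre WT. Of 6 crypt base stem cell markers, 3 fell in Villin in edgeR (3 in DESeq2, 0 in limma-voom), against 2.88% of all genes called lower. In AhCre 0 of these stem cell markers fell. The part of either cell type in the result was not tested.

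Lta4h, which encodes the hydrolase that makes leukotriene B4 in place of C4, had 219 and 230 CPM in AhCre KO, against 259 and 262 CPM in AhCre WT, and 455 and 596 CPM in Villin KO, against 239, 391.6 and 318 CPM in Villin WT. Its log2 fold change was -0.22 in AhCre (SE 0.34, edgeR adjusted p = 1.0) and 0.73 in Villin (SE 0.30, edgeR adjusted p = 0.152). It was named here after its values were seen, as were Mgst2, Mgst3, Ptges2 and Ptges3. Mgst2 and Mgst3 were also listed among the leukotriene steps. On average Mgst2 had a log2 fold change of -0.20 (SE 0.26, edgeR adjusted p = 0.799) and Mgst3 of 0.22 (SE 0.28, edgeR adjusted p = 0.797). Ptges2 and Ptges3 are the other prostaglandin E synthase genes. Ptges3 had a log2 fold change of 0.32 in AhCre (SE 0.32, edgeR adjusted p = 1.0) and -0.51 in Villin (SE 0.30, edgeR adjusted p = 0.294), and Ptges2 of 0.0023 in AhCre and -0.12 in Villin. Of the most abundant genes of the remaining steps, Cbr1, which encodes a carbonyl reductase acting on prostaglandin E2, had a log2 fold change of 0.25 on average (SE 0.26, edgeR adjusted p = 0.739) and Ptgr1, a prostaglandin reductase gene, one of -0.39 (SE 0.32, edgeR adjusted p = 0.658).

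Among receptors, the prostaglandin E2 receptor gene Ptger4 had a log2 fold change of 0.52 on average (SE 0.30, edgeR adjusted p = 0.471), and Ltb4r2, which encodes the BLT2 receptor, one of -0.08 (SE 0.48, edgeR adjusted p = 0.969). The cysteinyl leukotriene receptor gene Cysltr1 did not pass the filter on low counts and had 0 to 1.08 CPM per library. Aloxe3, the tested gene among the other lipoxygenases, had a value of -0.10 on average (SE 1.07, edgeR adjusted p = 0.992).

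**Figure D4:**
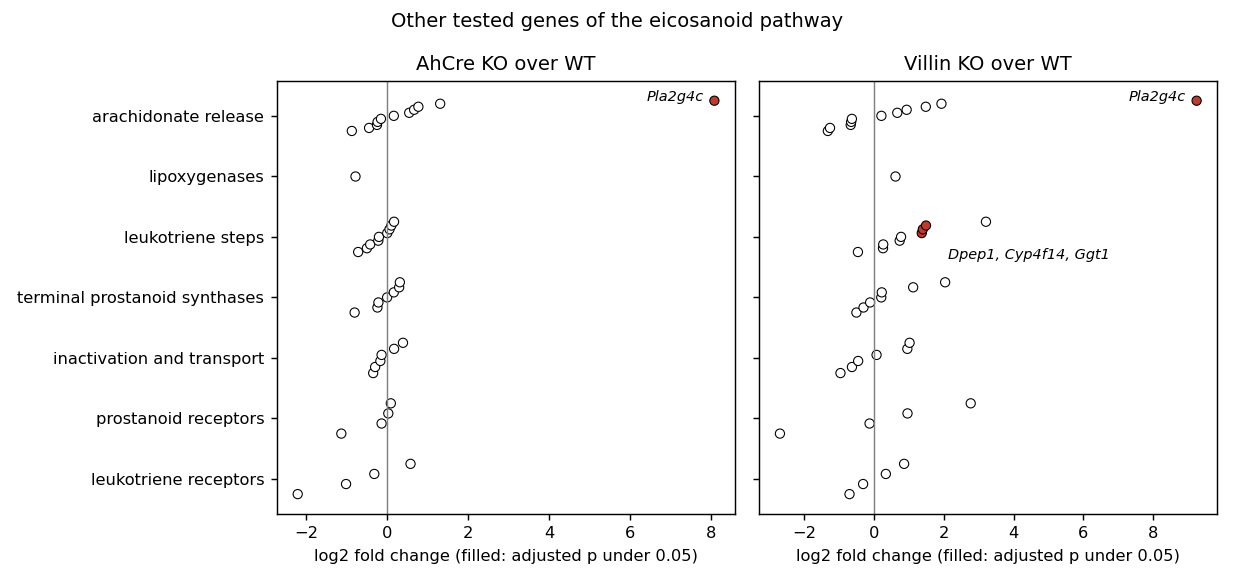
Log2 fold change of KO over WT (horizontal axis) in AhCre (left) and in Villin (right) for the 42 other pathway genes tested, by role, with one point per gene and filled points where the adjusted p was under 0.05. Pla2g4c stands far to the right in both panels, and Dpep1, Cyp4f14 and Ggt1 are the other filled points, in Villin.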

How the data were processed

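Per the labels' protocols, 2 ng of RNA from isolated crypts went into each Smart-seq2 library. The authors deposited 1 table of raw, whole-number read counts per library. Tools named in the submitters' processing notes are STAR 2.7, featureCounts and DESeq2 1.20, on mm10 or GRCm38; which annotation and strand setting were used is not stated there. Every row name (100%) matched GENCODE M21 (GRCm38), from which coordinates, exon lengths and overlaps were taken.

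The deposited counts entered edgeR 4.0.16 under R 4.3.3, with filterByExpr and TMM scaling. A quasi-likelihood fit of 4 group means to all 9 libraries followed (residual df 5, prior df 7.43, BCV 0.332). It was also run on simulated counts with the same spread in every group, which does not cover the larger spread among Villin libraries. The contrasts were KO over WT on average over both drivers, in AhCre and in Villin, and AhCre minus Villin. CPM are counts scaled to library size times TMM factor, and 3 counts in 1 library corresponded to 0.194 to 0.615 CPM. Also tried were DESeq2 size factors, testing without the low-count filter, DESeq2 1.42.0, limma-voom 3.58.1 with sample weights, fits of 1 driver alone, a replicate block and each library left out; a crossed block, the mast cell sum without Kit and the Ptgs2 ratio without Villin KO 1 were chosen after seeing the data. Named were all 9 genes, further pathway genes that were called or, in a role with none, the most abundant, and the 2 nearest patterns of each called gene, except those of Alox5ap, which are not reported here; other exceptions are marked. The genes and lists were chosen with earlier results of these data known.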

Additional observations from a re-analysis of the deposited data

How the results depend on the processing

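Of 556 values of single genes under alternatives, 547 kept their direction. Ptges in Villin turned positive in DESeq2 (0.0014), with DESeq2 size factors (0.036), with the replicate block (0.27), with the crossed block (0.27) and on leaving out Villin WT 3 (0.32) or Villin KO 1 (0.49), over a range of -1.10 to 0.49 with 1 library left out. On leaving out Villin KO 1 the difference between drivers turned positive for 3 genes, with leave-one-out ranges of -1.38 to 0.35 for Pla2g4a, -1.98 to 0.75 for Ptgs1 and -1.73 to 0.77 for Hpgds. Among the 9 genes, 6 were called on average (0 to 7 with 1 library left out), 0 in AhCre (4 without the low-count filter, 2 in DESeq2, 5 in limma-voom, 6 fitted alone, 0 to 2 with 1 library left out), 6 in Villin (8 in DESeq2, 7 with DESeq2 size factors, 2 in limma-voom, 2 to 7 with 1 library left out) and 0 for the difference (2 without the filter, 1 in DESeq2, 0 to 2 with 1 library left out). Over all genes, 190 were called on average (538 without the filter, 438 in DESeq2, 2 to 757 with 1 library left out), 1 in AhCre (137 without the filter, 74 in DESeq2, 911 in limma-voom, 1046 fitted alone, 1 to 64 with 1 library left out), 1009 in Villin (1591, 1749, 138, 259 and 73 to 1949 in the same order) and 12 for the difference (340 without the filter, 380 in DESeq2, 144 in limma-voom, 0 to 415 with 1 library left out). The cause of these shifts was not tested.

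Whether replicate numbers pair the samples could not be settled. Deviations from the group mean of same-numbered libraries correlated at -0.139 in AhCre and at 0.073 and -0.216 in Villin. With 2 KO libraries per driver the deviations mirror each other, so these values cannot decide on pairing. With the replicate block the 9 genes gave 5 calls on average, 0 in AhCre, 6 in Villin and 0 for the difference, and all genes gave 137 on average, 300 in Villin and 0 for the difference. With the numbers crossed in AhCre, a choice made after seeing the data, the counts were 3 of the 9 and 48 genes on average, 1 of the 9 and 46 genes in Villin, and 0 genes for the difference. Depth limits Ptgs2 and Ptges, which had 37 counts or fewer in every library.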

Other observations

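The genes here were chosen after their values were seen. Lipoxygenases other than Alox5 and Aloxe3 were too scarce for the test and are given as summed counts of a group. Exact 95% intervals of the ratio of KO over WT, where given, cover counting error only. Alox12, the platelet-type 12-lipoxygenase gene, had 22 counts in AhCre KO and 9 in AhCre WT. It had 9 counts in Villin KO and 0 in Villin WT, and the interval of its ratio in Villin starts at 3.22. Its level in Villin KO was 0.719 ± 0.728 CPM (SD, n = 2), with most of these counts from 1 library. Alox12b, an epidermal lipoxygenase gene, had 12 counts in AhCre KO and 3 in AhCre WT (ratio 4.84, 1.31 to 26.7), and 5 counts in Villin KO and 1 in Villin WT (ratio 8.16, 0.913 to 386). Alox15, the 12/15-lipoxygenase gene, had 3 counts in AhCre KO and 14 in AhCre WT (ratio 0.259, 0.0477 to 0.928), and 4 in Villin KO and 11 in Villin WT. Alox8 had 7 counts in AhCre KO and 11 in AhCre WT, and 0 in Villin KO and 2 in Villin WT. Alox12e had 7 counts in AhCre KO and 9 in AhCre WT, and 1 in Villin KO and 2 in Villin WT.

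Other mediator genes also had few counts, though Il25 was kept for the test. Ptgds, which encodes the lipocalin-type prostaglandin D synthase, had 1 count in AhCre KO and 6 in AhCre WT (ratio 0.202, 0.00438 to 1.66). It had 0 counts in Villin KO and 8 in Villin WT (ratio 0, 0 to 0.956). Its level in Villin WT was 0.462 ± 0.692 CPM (SD, n = 3), with most of these counts from 1 library. Il25, the tuft cell cytokine gene, had 28 counts in AhCre KO and 3 in AhCre WT (ratio 11.3, 3.49 to 58.0). In Villin it had 31 counts in KO and 1 in WT (ratio 50.6, 8.43 to 2062). It rose on average (log2 fold change 4.39, SE 0.77, edgeR adjusted p = 0.0117) and in Villin (5.44, SE 1.13, edgeR adjusted p = 0.0172). In AhCre it did not pass (3.34, SE 1.01, edgeR adjusted p = 0.629).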
